A study of Homo sapiens with 14 samples.

Results

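Proteasome subunit genes were taken as every gene in either of the authors' deposited tables whose symbol is PSMA, PSMB, PSMC, PSMD, PSME, PSMF or PSMG followed by a number. The rule found 45 genes among the 12202 listed in either table. Of these, 44 were among the 11261 genes of the siRNA comparison and 45 among the 11835 genes of the deletion comparison. PSMA6 in the siRNA comparison, and PSMA8, PSMB10 and PSMB11 in both, were not analysed here.

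The cells were teloHAEC, an aortic endothelial line from human tissue that grows without limit because it carries telomerase. One experiment compared 4 libraries of cells reverse transfected with siRNA against CALCRL, which encodes the calcitonin receptor-like receptor, with 4 libraries of cells given scrambled siRNA, both lysed after 24 h. The other compared 3 libraries of cells electroporated with Cas9 and guides on both sides of an enhancer with 3 libraries of cells that received Cas9 and a guide against HPRT, all taken after 2 days. The electroporated cells were collected as a pool, with no cloning step described. Since the control guide targets another gene, effects of the 2 cuts cannot be told apart in that comparison. RNA was read from the 3' end of polyadenylated transcripts. Both tables give each gene's comparison and hold no value for a single library. Fold changes, standard errors (SE) and adjusted p-values are therefore the authors' own, and group levels are the normalised counts that the deposited mean and fold change imply.

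The 26S proteasome unfolds and cuts proteins that carry ubiquitin chains. Its 20S core is a stack of rings of PSMA (alpha) and PSMB (beta) proteins, with the cutting sites in the beta rings. The 19S regulatory particle on its ends recognises, unfolds and feeds in the substrate, using a ring of PSMC ATPases and a set of PSMD proteins. PSME proteins form other activators that open the core, PSMF1 encodes an inhibitor of the core, and PSMG proteins are chaperones that help the rings assemble. Subunits of one particle are needed in fixed proportions, and their genes are known to be controlled together, with NFE2L1 as a transcription factor that raises them when proteasome activity falls. Interferon, also in endothelial cells, is known to raise the immunoproteasome subunits PSMB8 and PSMB9 and the activator subunits PSME1 and PSME2.

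CALCRL, the gene both treatments aimed at, fell under siRNA by a log2 fold change of -1.56 (SE 0.17) and after the deletion by one of -1.47 (SE 0.43), per the authors' deposited tables. With the trend of all genes on GC content subtracted, the deletion value was -1.07 and no longer passed the test. Of 12 endothelial markers, 11 were listed in both deposited tables, with mean normalised counts from 42.0 to 2063 and from 18.7 to 2277, and PECAM1 was not analysed here. None of 4 leukocyte markers was listed in either table. Of 7 smooth muscle and fibroblast markers only ACTA2 was listed, and of 3 epithelial markers only KRT18. After the deletion, in the authors' deposited table, the endothelial markers CDH5 (-1.44, SE 0.35) and KDR (-1.05, SE 0.31) were called lower and KRT18 (1.13, SE 0.30) higher, and under siRNA EGFL7 (-0.46, SE 0.11) lower. Their part in the members' results was not tested.

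The promoters of 5 members called after the deletion are shown, because the genes serve one machine and yet moved in opposite directions. They are those of the 3 ATPase genes that rose, of the gene with the lowest fold change and of PSMD5, in which 2 of the motifs searched were found. They are RefSeq sequences on GRCh38.p14, 250 bases before to 50 after the start of each gene, 5′ to 3′ on the gene's strand. Capitals mark matches on either strand to the 4 motifs searched, which were CCAAT (the CCAAT box), TGACNNNGC (the core of an antioxidant response element) and the heat shock element pairs GAANNTTC and TTCNNGAA. PSMC1 (chr14:90256303-90256602, plus strand), PSMC3 (chr11:47426390-47426689, minus strand) and PSMC5 (chr17:63827181-63827480, plus strand) encode ATPases and rose. PSMA5 (chr1:109426399-109426698, minus strand) encodes an alpha subunit, PSMD5 (chr9:120842873-120843172, minus strand) a chaperone of 19S assembly, and both fell.
PSMC1: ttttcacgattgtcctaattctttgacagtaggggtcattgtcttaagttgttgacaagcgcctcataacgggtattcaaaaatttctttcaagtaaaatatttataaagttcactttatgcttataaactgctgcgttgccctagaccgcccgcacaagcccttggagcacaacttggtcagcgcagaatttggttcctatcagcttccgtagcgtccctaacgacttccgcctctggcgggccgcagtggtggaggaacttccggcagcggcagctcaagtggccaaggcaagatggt
PSMC3: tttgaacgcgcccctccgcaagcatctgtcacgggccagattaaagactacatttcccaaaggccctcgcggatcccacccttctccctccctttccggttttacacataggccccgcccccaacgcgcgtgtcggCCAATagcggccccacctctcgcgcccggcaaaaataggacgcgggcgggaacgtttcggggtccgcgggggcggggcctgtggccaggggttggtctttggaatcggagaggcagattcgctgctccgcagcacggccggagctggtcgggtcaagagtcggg
PSMC5: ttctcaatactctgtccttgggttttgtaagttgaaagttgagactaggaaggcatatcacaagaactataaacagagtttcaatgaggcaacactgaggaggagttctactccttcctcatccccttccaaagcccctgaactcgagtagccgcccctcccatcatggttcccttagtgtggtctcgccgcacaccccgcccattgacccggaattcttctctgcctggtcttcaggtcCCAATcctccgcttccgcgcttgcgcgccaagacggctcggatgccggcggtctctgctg
PSMA5: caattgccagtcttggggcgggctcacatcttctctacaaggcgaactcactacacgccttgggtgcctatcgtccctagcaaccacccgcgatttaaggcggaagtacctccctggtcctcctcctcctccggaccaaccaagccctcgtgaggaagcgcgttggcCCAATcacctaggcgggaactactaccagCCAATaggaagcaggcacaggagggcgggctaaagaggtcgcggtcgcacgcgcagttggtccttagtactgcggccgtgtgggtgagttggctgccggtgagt
PSMD5: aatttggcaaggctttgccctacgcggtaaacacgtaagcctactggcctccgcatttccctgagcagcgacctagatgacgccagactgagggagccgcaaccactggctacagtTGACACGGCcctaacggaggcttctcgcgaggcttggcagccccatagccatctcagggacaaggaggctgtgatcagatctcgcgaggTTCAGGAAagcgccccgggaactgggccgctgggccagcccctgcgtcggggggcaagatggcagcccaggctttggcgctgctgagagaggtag

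A promoter was matched by symbol for 39 of the 45 members. TGACNNNGC was found in 13 of the 39 (33.3%) and in 13.6% of all 27305 promoters of that length. None of the 6 members that rose after the deletion held it, and of the 5 that fell, PSMD5 and PSMG2 did. CCAAT was found in 18 of the 39 (46.2%) and in 35.7% of all promoters, among them PSMB5, PSMC3, PSMC5 and PSMD8, which rose, and PSMA3 and PSMA5, which fell. GAANNTTC was in 0 of the 39, against 6.87% of all promoters. TTCNNGAA was in 2 of the 39 (5.13%), PSMD5 and PSMD6, against 7.84% of all promoters. None of the 4 motifs was in the PSMC1 promoter shown. A match describes the letters in this window and is not a measured binding site.

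Few proteasome subunit genes passed the test 24 h after knockdown of CALCRL. In the authors' deposited table for siRNA, 3 of the 44 members (6.82%) had an adjusted p-value under 0.05, which is the threshold for a call throughout. Over all 11261 genes of that table, 3.46% were called, 1.05% higher and 2.42% lower. PSMD10 and PSME3 fell and PSMG3 rose. With Wald statistics divided by their robust SD only PSMD10 was still called, beside 262 of all genes. Under a Student t reference no member was called, and only 5 of all genes were. Members lay above 0 in 22 cases and below 0 in 22, with a median log2 fold change of 0.00, the same as for all genes of the deposited table. Members are abundant and were measured more precisely than most genes, with a median SE of 0.12 against 0.17 for all genes in the authors' deposited table. Among genes read at a mean of 500 normalised counts or more, 1 of 28 members (3.57%) and 5.94% of all such genes were called.

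PSMD10, on the minus strand of the X chromosome (chrX:108084207-108091618, GENCODE release 29 on GRCh38), showed the largest change of any member under siRNA. It encodes gankyrin, which holds an ATPase during assembly of the 19S base and is not in the finished particle. Its implied level was 257 normalised counts with scrambled siRNA and 153 with CALCRL siRNA. In the authors' deposited table this was a log2 fold change of -0.75 (SE 0.15; adjusted p = 5.5e-05). The treated level was 59.5% of the control (95% interval 48.7% to 72.8%). PSMD5, another chaperone of the 19S base, was at -0.51 (SE 0.21) in the same deposited table (adjusted p = 0.200). The third base chaperone named as a PSMD gene, PSMD9, was at -0.22 (SE 0.21; adjusted p = 0.815) in the deposited table. PSMD9 was read at a mean of only 45.7 normalised counts there, and 87.2% of its last 500 bases overlap WDR66 on the same strand in GENCODE.

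PSME3, whose product PA28-gamma caps the core in the nucleus, was at 81% of the scrambled control. Its implied level went from 828 to 669 normalised counts, a log2 fold change in the authors' deposited table of -0.31 (SE 0.09; adjusted p = 0.0290). The other activator genes lay on the same side of 0 without passing the test. In the deposited table PSME1 was at -0.03 (SE 0.12), PSME2 at -0.13 (SE 0.11) and PSME4, the gene of PA200, at -0.13 (SE 0.07). The authors' deposited table gave PSMF1 0.05 (SE 0.11).

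PSMG3 (chr7:1567330-1571005, minus strand, GENCODE release 29 on GRCh38) rose by a log2 fold change of 0.36 (SE 0.10; adjusted p = 0.0197) in the authors' deposited table. It encodes a chaperone that acts with the PSMG4 product on the alpha ring. Its implied level was 282 normalised counts in the control and 362 under siRNA. PSMG4 was at 0.35 (SE 0.12; adjusted p = 0.0647) in the deposited table, just short of the threshold. PSMG1 and PSMG2, whose products pair as the other alpha-ring chaperone, were at -0.11 (SE 0.10) and -0.10 (SE 0.15) there. So the pair of PSMG3 and PSMG4 had log2 fold changes above 0 and the pair of PSMG1 and PSMG2 below 0, with only PSMG3 past the test.

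None of the 15 core subunit genes was called under siRNA by the authors' DESeq2 test, and 0 of them had an unadjusted p-value under 0.05. In the authors' deposited table their log2 fold changes ran from -0.13 (PSMB9) to 0.12 (PSMB1), with a median of 0.02. The catalytic subunits were among the closest to 0, with PSMB5 at 0.00 (SE 0.10), PSMB6 at 0.02 (SE 0.10) and PSMB7 at 0.02 (SE 0.12) in the deposited table. Their 95% intervals allow levels between 86.0% and 120% of the control. The immunoproteasome subunits that replace catalytic ones, PSMB8 and PSMB9, were at 0.04 (SE 0.18) and -0.13 (SE 0.15) in the authors' deposited table. PSMA5 had the widest error of any member in this comparison, -0.12 (SE 0.32) in the deposited table. The alpha genes had a median of 0.03 and the beta genes of 0.02.

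The 6 ATPase genes ran from -0.21 (PSMC1, SE 0.16) to 0.23 (PSMC6, SE 0.13) in the authors' deposited table for siRNA, and none was called (0 with an unadjusted p-value under 0.05, DESeq2). Of the 14 PSMD genes, 9 lay below 0 and 5 above, with a median of -0.04. The highest of them was PSMD14, which encodes the deubiquitinase of the 19S lid, at 0.25 (SE 0.10; adjusted p = 0.145) in the deposited table.

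**Figure D1:**
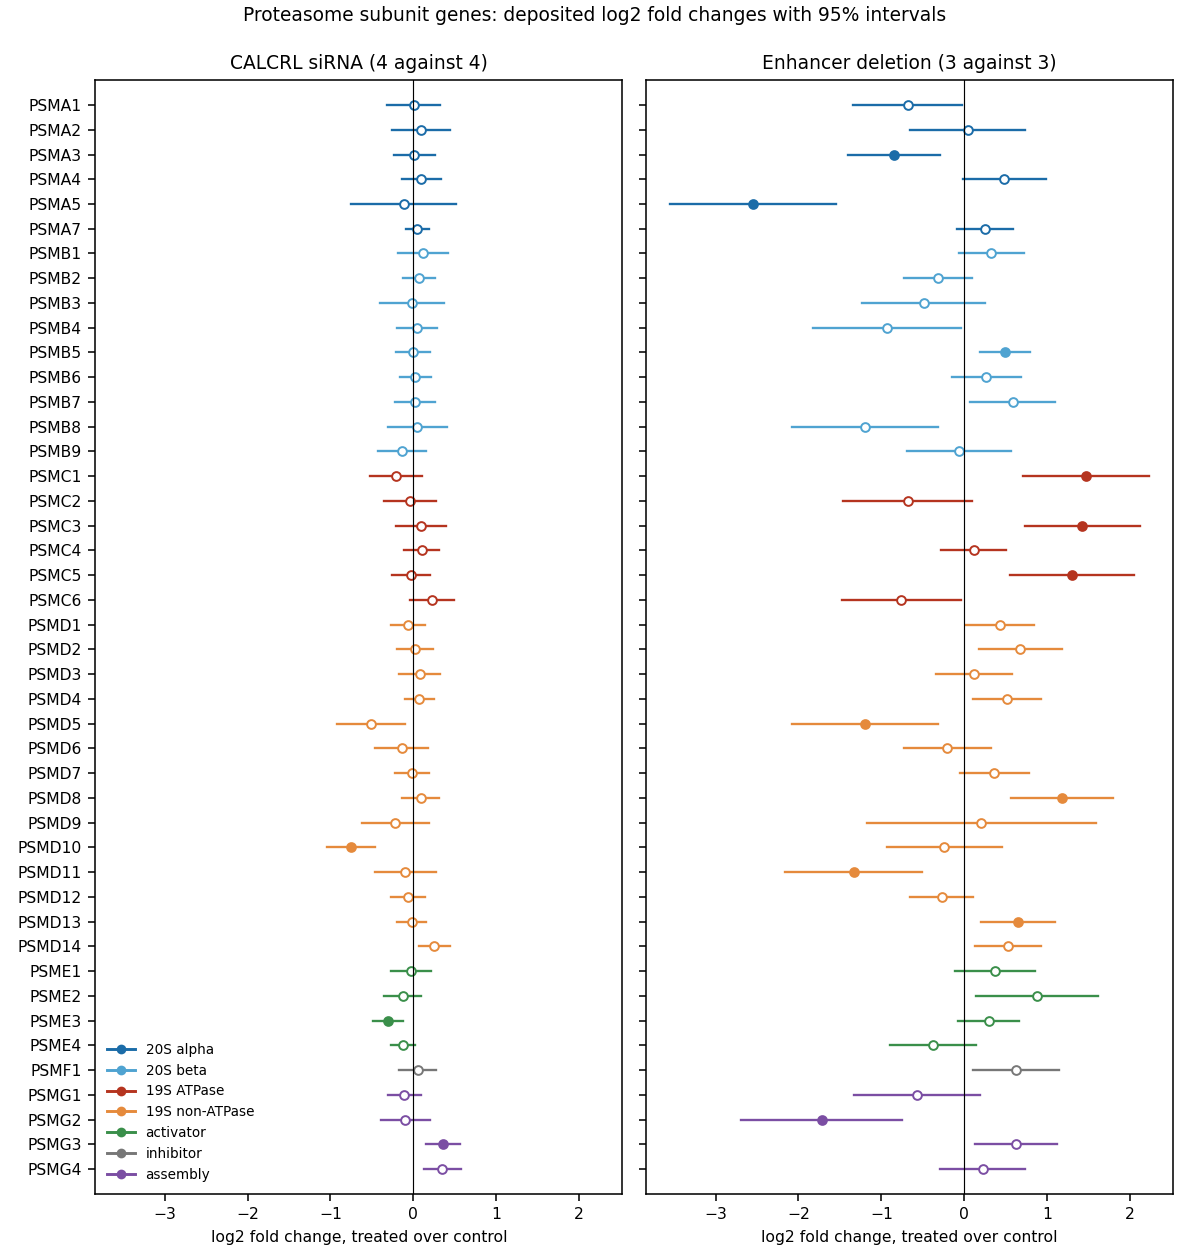
Log2 fold change of each proteasome subunit gene (horizontal axes, treated over control) with its 95% interval in the siRNA comparison (left) and the deletion comparison (right), coloured by class; filled points have an adjusted p-value under 0.05. Points lie between PSMD10 at -0.75 and PSMG3 at 0.36 under siRNA, and spread from PSMA5 at -2.55 to PSMC1 at 1.47 after the deletion. PSMA6, listed for the deletion only and at a mean of 5.79 normalised counts, is left out.

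After deletion of the enhancer the called members went in both directions, with the largest rises among the ATPase genes of the 19S ring and the largest fall in the alpha gene PSMA5. Among deletion results of the authors' deposited table, 11 of 45 members (24.4%) were called, 6 higher and 5 lower, and 23 had an unadjusted p-value under 0.05. Over all genes listed there, 15.8% were called, 7.4% higher and 8.44% lower. Under a Student t reference, or with Wald statistics divided by their robust SD, 0 members and 0 of all genes were called. Most members are abundant, and abundant genes were called more often. At a mean of 500 normalised counts or more, 8 of 29 members (27.6%) and 24.4% of all such genes were called, so the members' share was near that of other genes read as deeply. The median log2 fold change of the members was 0.21, against 0.00 for all genes. At 500 counts or more it was 0.36 for members, with 72.4% above 0, and 0.14 for all such genes, with 59.1% above 0. This difference was not tested.

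The genes named PSMC and PSMD held 7 of the 11 calls, 5 higher and 2 lower among 20 genes (35%), with a median of 0.28. Over all genes 15.8% were called. Of all genes at a mean of 500 normalised counts or more, 24.4% were called, with a median log2 fold change of 0.14. Without PSMD5, PSMD9 and PSMD10, which encode assembly chaperones, there were 6 calls, 5 higher and 1 lower, among 17 genes. The core held 3 calls, 1 higher and 2 lower among 16 genes (18.8%), with a median of -0.01. By class, the median was 0.71 for the ATPases, 0.28 for the PSMD genes, 0.04 for the alpha and -0.06 for the beta genes. Without PSMA6, which was read at a mean of only 5.79 normalised counts, the alpha median was -0.32. No difference between classes was tested. The activators held no call among 4 genes, the inhibitor gene none, and the assembly chaperones 1 lower among 4. In the authors' DESeq2 test, 1 activator gene and the inhibitor gene had an unadjusted p-value under 0.05.

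Of the 6 ATPase genes, 3 rose by more than 2 times. PSMC1 (chr14:90256495-90275429, plus strand, GENCODE release 29 on GRCh38) went from an implied 715 normalised counts in the CRISPR control to 1983 after the deletion. That is a log2 fold change in the authors' deposited table of 1.47 (SE 0.39; adjusted p = 0.0039), or 277% of the control (95% interval 164% to 470%). PSMC3 (chr11:47418769-47426473, minus strand) went from 631 to 1694 counts, at 1.43 (SE 0.36; adjusted p = 0.0021) in the deposited table. PSMC5 (chr17:63827152-63832026, plus strand) went from 817 to 2018 counts, at 1.30 (SE 0.38; adjusted p = 0.0097) in the deposited table.

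The other ATPase genes were not called. The ring is assembled from pairs, PSMC1 with PSMC2, PSMC3 with PSMC6, and PSMC5 with PSMC4. In the authors' deposited table PSMC2 was at -0.68 (SE 0.40; adjusted p = 0.239), PSMC6 at -0.76 (SE 0.37; adjusted p = 0.145) and PSMC4 at 0.11 (SE 0.20; adjusted p = 0.749). As deposited, each pair thus had 1 gene that rose and 1 that did not pass the test. With the trend of all genes on GC content subtracted, PSMC5 (1.02) was no longer called, and its pair with PSMC4 held no call. The differences within pairs were not tested.

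The count of PSMC1 is uncertain. All of the last 500 bases of its transcript with the longest annotated 3' UTR overlap NRDE2 on the opposite strand in GENCODE. The annotation holds 13 pseudogenes of PSMC1. The row for PSMC1P1 in the authors' deposited table was also above 0, at 1.14 (SE 0.49; adjusted p = 0.0881) and a mean of 73.1 normalised counts. Whether the counting used the strand is not given in the sources used here. The same holds for PSMD7, with 68.4% of its last 500 bases over AC009120.2 on the opposite strand, and 43.8% of those of PSMA1 overlap AC018523.2 on its own strand.

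Among the PSMD genes, PSMD8 and PSMD13 rose and PSMD11 and PSMD5 fell. PSMD8, PSMD13 and PSMD11 encode lid subunits. PSMD8 (chr19:38374536-38383824, plus strand) went from 745 to 1684 normalised counts, a log2 fold change in the authors' deposited table of 1.18 (SE 0.31; adjusted p = 0.0044). PSMD13 (chr11:236546-252984, plus strand) reached 157% of the control, at 0.65 (SE 0.23; adjusted p = 0.0357) in the deposited table. PSMD11 (chr17:32444261-32483318, plus strand) went from 2027 to 803 counts, or 39.6% of the control, at -1.33 (SE 0.42; adjusted p = 0.0179) in the deposited table. Genes of 1 sub-complex therefore changed in both directions.

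PSMD5 (chr9:120815496-120842984, minus strand), the assembly chaperone, went from 220 to 95.7 normalised counts. The authors' deposited table gave it a log2 fold change of -1.20 (SE 0.45; adjusted p = 0.049997), just under the threshold. PSMD10, the chaperone that fell under siRNA, was at -0.24 (SE 0.35; adjusted p = 0.696) for the deletion in the authors' deposited table. Just above the threshold in the same deposited table were PSMD2, a large scaffold protein of the base, at 0.68 (SE 0.26; adjusted p = 0.0506) and PSMD14 at 0.52 (SE 0.20; adjusted p = 0.0580). PSMD4, a ubiquitin receptor, was at 0.52 (SE 0.21; adjusted p = 0.0702) there. The remaining PSMD genes lay between -0.27 (PSMD12) and 0.43 (PSMD1) in the authors' deposited table.

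In the alpha ring PSMA5 and PSMA3 fell. PSMA5 (chr1:109399031-109426427, minus strand) had the lowest fold change of any member. Its implied level went from 308 normalised counts to 52.5, or 17.1% of the control (95% interval 8.54% to 34.1%). The authors' deposited table gave -2.55 (SE 0.51; adjusted p = 6.9e-05). PSMA3 (chr14:58244831-58272012, plus strand) went from 977 to 543 counts, at -0.85 (SE 0.28; adjusted p = 0.0252) in the deposited table. PSMA1 was at -0.68 (SE 0.34; adjusted p = 0.151), PSMA4 at 0.48 (SE 0.26; adjusted p = 0.187) and PSMA7 at 0.25 (SE 0.17; adjusted p = 0.327) in the deposited table.

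PSMA5 also stood apart in the siRNA comparison by its spread. Its SE there was 2.52 times the typical SE at its mean, the only member above 2 times. This ratio was 1.76 for PSMD11. It ran from 1.12 to 2.52 (median 1.32) in the 5 members that fell after the deletion. In the 6 that rose it ran from 0.88 to 1.54 (median 1.13). All genes above 2 times numbered 214, and 207 of them had a log2 fold change below 0 in the deletion comparison. The part of this spread in the fall of PSMA5 was not tested. Without PSMA5, 10 of 44 members were called after the deletion, 6 higher and 4 lower. PSMA6 was listed for the deletion at a mean of only 5.79 normalised counts, 0.17 (SE 1.46) in the authors' deposited table, and all of its last 500 bases overlap AL121594.1 on the same strand.

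Of the 9 beta genes only PSMB5 was called. PSMB5 (chr14:23016543-23035230, minus strand) encodes the chymotrypsin-like site, the target of bortezomib. It went from 1847 to 2598 normalised counts, at 0.49 (SE 0.15; adjusted p = 0.0147) in the authors' deposited table. The other catalytic genes were PSMB6 at 0.27 (SE 0.21; adjusted p = 0.411) and PSMB7 at 0.58 (SE 0.26; adjusted p = 0.111) in the deposited table. PSMB8, the immunoproteasome counterpart of PSMB5, was at -1.19 (SE 0.45; adjusted p = 0.05003, just above the threshold) in the deposited table, or 43.7% of the control. PSMB9, the counterpart of PSMB6, was at -0.06 (SE 0.32; adjusted p = 0.921) there. In GENCODE the outer bounds of PSMB8 (chr6:32840717-32844703, minus strand) and PSMB9 (chr6:32844136-32859585, plus strand) overlap. The promoters at their RefSeq starts lie apart, at chr6:32844630-32844929 for PSMB8 and chr6:32853942-32854241 for PSMB9. The difference between these neighbours was not tested. PSMB1, PSMB2 and PSMB3 lay between -0.49 and 0.33 in the authors' deposited table, none called. The lowest beta gene after PSMB8 was PSMB4, at -0.93 (SE 0.46; adjusted p = 0.146) in the deposited table.

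The activator subunits PSME1 and PSME2, which form PA28-alpha-beta and lie near each other on chromosome 14, were at 0.38 (SE 0.25; adjusted p = 0.301) and 0.88 (SE 0.38; adjusted p = 0.0903) for the deletion in the authors' deposited table. PSME3 was at 0.29 (SE 0.19; adjusted p = 0.296) and PSME4 at -0.38 (SE 0.27; adjusted p = 0.346) there. PSMF1, the inhibitor gene, was at 0.63 (SE 0.26; adjusted p = 0.0858) in the deposited table.

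Of the assembly chaperones PSMG2 (chr18:12658043-12725740, plus strand) fell, from 369 to 112 normalised counts or 30.3% of the control. Its log2 fold change in the authors' deposited table was -1.72 (SE 0.50; adjusted p = 0.0088). Its partner PSMG1 was at -0.57 (SE 0.39; adjusted p = 0.322) in the deposited table. PSMG3, which rose under siRNA, was at 0.63 (SE 0.25; adjusted p = 0.0675) after the deletion in the deposited table, and PSMG4 was at 0.22 (SE 0.26; adjusted p = 0.606).

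The fold change of a member after the deletion rose with the GC content at the end of its transcript with the longest annotated 3' UTR. GC content over the last 500 bases had a median of 54.3% in the 6 members that rose (46.8% to 57.2%), 37.6% in the 5 that fell (32.4% to 43.6%) and 45.6% in the others. Among called members, the highest GC content of those that fell was thus below the lowest of those that rose. That split depends on the threshold for a call. Just above the threshold, PSMB8 (-1.19) had a GC content of 51.6% and PSMD14 (0.52) one of 35.6%. With a minimum mean of 50 counts both were called, and the split did not hold. Across the 44 members with a value, Spearman's rho between GC content and the deletion log2 fold change was 0.60 and Pearson's r 0.56, as a description across genes that share libraries. Over all 11630 genes with a value rho was 0.30, and among 43 members under siRNA it was 0.27. With the trend of all genes on GC content subtracted, 9 members were called, 5 higher and 4 lower, and 6 of the 11 calls were kept. Those kept were PSMC1 (1.42), PSMC3 (1.02), PSMD8 (0.90), PSMD11 (-1.29), PSMG2 (-1.54) and PSMA5 (-2.32). Lost were PSMB5 (0.06), PSMC5 (1.02), PSMD13 (0.27), PSMA3 (-0.75) and PSMD5 (-0.97), while PSMB8 (-1.42), PSMD14 (0.73) and PSMF1 (0.73) passed. PSMB6, PSMC4, PSMD3 and PSMD12, not called either way, changed sign. The part of GC content in these changes was not tested.

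**Figure D2:**
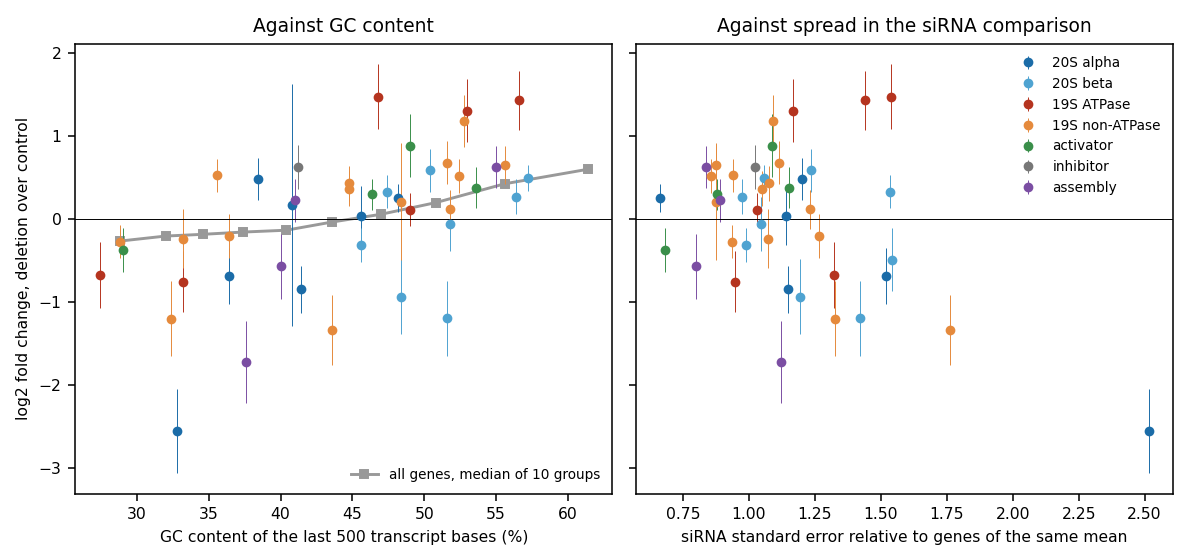
Log2 fold change after the deletion (vertical axis; bars are 1 SE) against the GC content of the last 500 transcript bases (left, with medians of all genes in 10 groups of GC content joined by the grey line) and against the siRNA SE relative to genes of the same mean (right), coloured by class. The 5 members called lower lie at 43.6% GC or below and the 6 called higher at 46.8% or above. Members not called do not keep to that split, such as PSMB8 (-1.19 at 51.6% GC) and PSMD14 (0.52 at 35.6% GC). PSMA5 stands alone at 2.52 on the right.

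The siRNA and deletion log2 fold changes of a member were then set against each other. The experiments share no control library. The difference passed an adjusted p-value of 0.05 (normal reference, adjusted over 10891 genes) for 9 of 44 members, against 13.7% of all genes. Most members are abundant, and the share among abundant genes was not computed for this difference. The difference was siRNA-lower for 6, PSMC1 (-1.68), PSMC5 (-1.34), PSMC3 (-1.33), PSMD8 (-1.09), PSMD13 (-0.67) and PSME3 (-0.60). It was siRNA-higher for PSMA5 (2.43), PSMG2 (1.62) and PSMA3 (0.86). Of the 9, 8 were called after the deletion and not under siRNA. PSME3 was the exception, since it fell under siRNA and was above 0 without passing the test after the deletion. With the GC trend subtracted 4 members passed, siRNA-higher for PSMA5, PSMG2 and PSMB8 and siRNA-lower for PSMC1, so most of the siRNA-lower differences were lost. Under a Student t reference or with statistics divided by their robust SD, 0 passed. No member was called in both comparisons. Over all 10891 genes only 47 (0.432%) were, so a count of 0 among 44 members does not set them apart. The fold changes had the same sign in 28 of the 44 members (63.6%) and in 51.1% of all genes.

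PSMD10 fell under siRNA and was not called after the deletion, and yet the difference between its log2 fold changes was -0.51 (SE 0.38; adjusted p = 0.391). That difference did not pass the test. PSMD5, at -0.51 and -1.20 in the authors' deposited tables, was below 0 in both, and PSMG3, at 0.36 and 0.63 in the deposited tables, above 0 in both, each past the threshold in 1 comparison. Their differences, 0.69 (SE 0.50; adjusted p = 0.368) and -0.27 (SE 0.27; adjusted p = 0.541), did not pass the test.

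**Figure D3:**
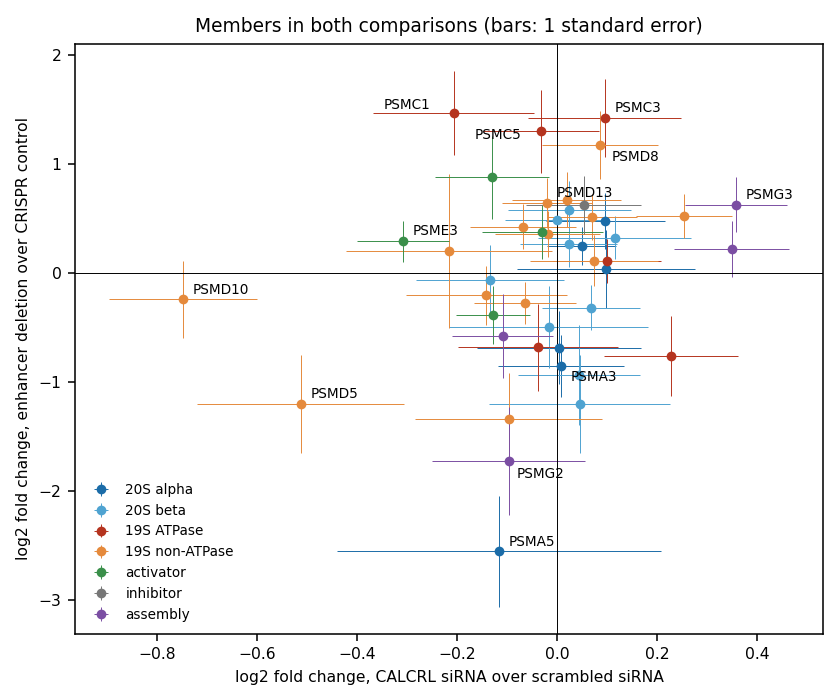
Log2 fold change under siRNA (horizontal axis) against that after the deletion (vertical axis, on another scale) for the 44 members in both comparisons, with bars of 1 SE and colours by class; named are the members whose fold changes differed, with PSMD10, PSMD5 and PSMG3. The vertical spread, from PSMA5 at -2.55 to PSMC1 at 1.47, exceeds the horizontal one, from PSMD10 at -0.75 to PSMG3 at 0.36.

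GTAACAA, a word that an earlier look at these siRNA values had picked as marking lowered genes, was in the annotated 3' UTR of 5 of 43 members of the siRNA comparison (11.6%), close to the 10.7% of all 10639 genes with one. Because the word was chosen on these values, neither its presence in a lowered gene nor the direction of the genes that hold it is evidence of its own. The sites of PSMD10 and PSME3, the members called lower, are shown with 11 bases on each side and the word in capitals, from GENCODE release 29 on GRCh38.
PSMD10: taaaatgacatGTAACAAaaatgtatttt
PSME3: aatagtactcaGTAACAAaccaattgcat

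The other members with the word were PSMD5, PSMA5 and PSMD1, none of them called under siRNA. In the authors' deposited table all 5 lay below 0, as did 68.6% of the 1136 genes with the word and 47.2% of the 9503 without it. PSMA6 also holds the word and was not analysed here under siRNA.

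The other genes of the pathway were taken from a list of 33, of which 32 were in each table. Under siRNA none was called by the authors' DESeq2 test, and only USP14, a deubiquitinase on the 19S particle, had an unadjusted p-value under 0.05, at -0.18 (SE 0.09) in the deposited table. After the deletion 7 of 32 were called (21.9%), 4 higher and 3 lower, beside 15.8% of all genes, and 14 had an unadjusted p-value under 0.05. All 7 had a mean of 500 normalised counts or more, where they were 7 of 19 (36.8%), beside 24.4% of all such genes.

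UBB, a polyubiquitin gene, rose after the deletion, at 0.84 (SE 0.24; adjusted p = 0.0097) in the authors' deposited table. RPS27A, whose product is ubiquitin fused to a ribosomal protein, rose as well, at 0.46 (SE 0.16; adjusted p = 0.0371) in the deposited table. With the GC trend subtracted UBB (0.61) no longer passed and RPS27A (0.63) did. Among all 32 genes 9 were then called, with UBB and ZFAND5 lost and DDI2, TXNL1, UBA1 and UFD1 gained. Under siRNA UBB was at 0.09 (SE 0.11) and RPS27A at 0.04 (SE 0.11) in the authors' deposited table.

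POMP, the factor that matures the beta ring, rose after the deletion, at 0.54 (SE 0.18; adjusted p = 0.0234) in the authors' deposited table. UBE3C, a ubiquitin ligase bound to the proteasome, also rose, at 0.96 (SE 0.34; adjusted p = 0.0393) in the deposited table. SEM1, the smallest lid subunit and outside the PSM names, fell to 39.2% of the control, at -1.35 (SE 0.28; adjusted p = 0.00015) in the deposited table. UBQLN1, which carries ubiquitinated proteins to the proteasome, fell to 31.1%, at -1.68 (SE 0.34; adjusted p = 8.34e-05) in the deposited table, and ZFAND5, an activator of the 26S particle, was at -0.87 (SE 0.31; adjusted p = 0.0387), or -0.65 and no longer called with the GC trend subtracted. NFE2L1, the transcription factor of proteasome genes, was at -0.16 (SE 0.23; adjusted p = 0.678) and NFE2L2 at 0.07 (SE 0.18; adjusted p = 0.839) in the authors' deposited table.

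**Figure D4:**
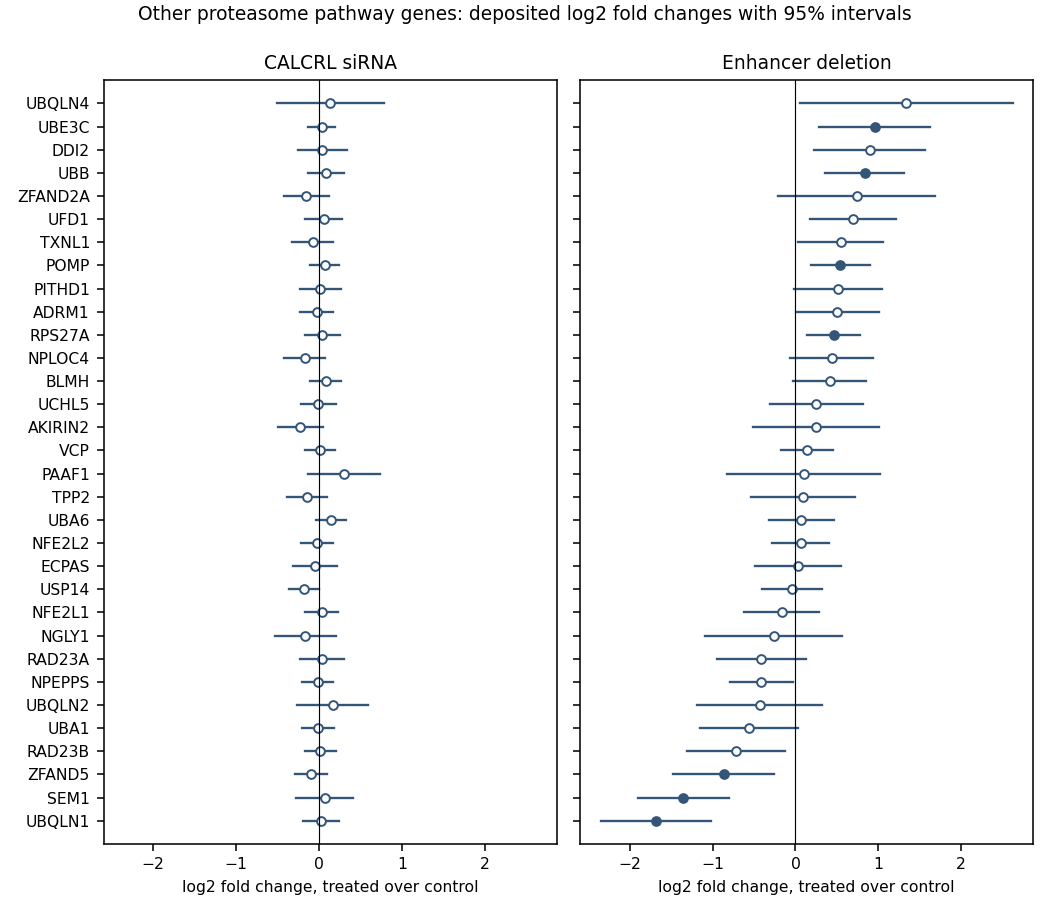
Log2 fold change (horizontal axes, treated over control) with its 95% interval for the 32 other pathway genes under siRNA (left) and after the deletion (right), ordered by the deletion value; filled points have an adjusted p-value under 0.05. No point is filled on the left, and on the right 4 are filled above 0 and 3 below, from UBE3C at 0.96 to UBQLN1 at -1.68.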

How the data were processed

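Per the labels' protocols, RNA from 14 teloHAEC libraries was made into 3' mRNA-seq libraries (QuantSeq FWD), and groups were taken from the sample labels. The authors compared the groups with DESeq2, per the file headers and names, and deposited per gene a mean normalised count, a log2 fold change with standard error, the Wald statistic as a score, and p-values before and after adjustment. The build hg19 and edgeR 3.24.3 are listed per the submitters' processing notes, with no role; the aligner, annotation and filters are not given in the sources used here. The tables hold no value per library, so depth per library is unknown, precision is that of the deposited standard errors, and tests on counts could not be used. Nothing says whether libraries came from separate cultures, so p-values may measure technical spread only.

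The deposited values were read with decimal commas (Python 3.11.15, pandas 2.3.3). Intervals of 95%, implied group means and differences between the experiments were computed from them (scipy 1.17.1, Benjamini-Hochberg over all genes). Gene positions, GC content and 3' UTR sequence were read from GENCODE release 29 on GRCh38 by gene ID, which may not be the authors' annotation; PSMB3 was not matched. A lowess trend on GC content (span 0.3, statsmodels 0.14.6) was subtracted as 1 of 7 alternatives. The scripts were tested on simulated data.

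Members, lists and tests were chosen with earlier results of these data known. Values are given for members called, or differing between experiments, the catalytic and immunoproteasome subunits, PSME1, PSME2, PSMF1 and the extremes of each class; from the other pathway genes, for those called and NFE2L1, NFE2L2 and POMP. Values of other members near the threshold, partners in a pair and USP14 were added after they were seen. Some genes of the pathway list are not reported here.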

Additional observations from a re-analysis of the deposited data

Results flagged for a closer look

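For 9 members the siRNA and deletion log2 fold changes differed from each other past an adjusted p-value of 0.05 (normal reference on the deposited values). As siRNA minus deletion on the log2 scale, the difference was 0.86 for PSMA3, 2.43 for PSMA5, 1.62 for PSMG2, -1.68 for PSMC1, -1.33 for PSMC3, -1.34 for PSMC5, -1.09 for PSMD8, -0.67 for PSMD13 and -0.60 for PSME3. Among the other pathway genes it was 1.42 for SEM1, 1.71 for UBQLN1 and -0.75 for UBB. With the GC trend subtracted, 4 members passed, siRNA-higher for PSMA5, PSMB8 and PSMG2 and siRNA-lower for PSMC1.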

How the results depend on the processing

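Under a Student t reference 0 members were called for siRNA (6 with an unadjusted p-value under 0.05) and 0 for the deletion (10 unadjusted), with 0 of the other pathway genes after the deletion and 0 differences between the experiments. It called 0 of all 11835 genes for the deletion, so it says nothing about these members in particular. For siRNA it called only 5 of all genes. With Wald statistics divided by their robust SD, 1 member was called for siRNA, and 0 members (4 unadjusted), 0 other pathway genes and 0 differences were called for the deletion, again with 0 of all its genes. At a threshold of 0.01 the counts were 1 for siRNA, 6 for the deletion, 3 other pathway genes and 2 differences. At 0.1 they were 18 for the deletion and 15 differences. GC trend removal left 4 differences (3 siRNA-higher, 1 siRNA-lower) and turned the sign of 4 of 44 members after the deletion, PSMB6 (to -0.13), PSMC4 (-0.01), PSMD3 (-0.12) and PSMD12 (0.02), none called either way. A minimum mean of 50 counts moved the alpha median after the deletion to -0.32, because PSMA6 then drops out. Median centring changed none of these counts by over 1.5 times. Other normalisations and leaving out replicates could not be run. No paired analysis was possible because only finished comparisons, without single libraries, were at hand.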
